A study of Mus musculus with 4 samples.

Results

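The S100 genes encode small proteins of a calcium-binding family. The 10 genes described here, S100b, S100a1, S100a3, S100a4, S100a6, S100a8, S100a9, S100a10, S100a11 and S100a13, were chosen by name, with their measured values between the vectors on these arrays already known, so that difference is given as a description. The standard errors show its scatter, and counts of calls stand beside their background only, with nothing read from them. They were read by 11 of the 56605 non-control probes, which carry 37074 gene names in all. GC-1 is an immortalised mouse line derived from type B spermatogonia. The Hdac6 vector group (2 arrays) received the murine gene, tagged with myc/DDK and driven by the CMV promoter, on a transfected plasmid. The empty vector group (2 arrays) was transfected with the empty plasmid, and both were harvested 48 h after transfection. Each array measured Cy3-labelled total RNA on an Agilent whole-genome design, and all 4 lay on 1 slide scanned on 1 day. The sources used here give neither the transfected share of the cells nor whether replicates were separate cultures. The p-values therefore reflect the scatter of these 4 arrays alone, and that scatter may be technical.

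S100 proteins form dimers, and most change shape on binding calcium through a pair of EF-hand loops, which exposes a surface for partner proteins. Inside cells they act on the cytoskeleton, on annexins at membranes and on enzymes, and some are released and act on receptors such as Ager and Tlr4. S100a8 and S100a9 form calprotectin, a major cytosolic protein of neutrophils, while S100b is abundant in glia.

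The EF-hand loop is the part of these proteins that binds calcium, and 2 member probes lie across its coding sequence. They are printed 5′ to 3′ as deposited, with capitals on the bases whose codons match the EF-hand loop pattern. The S100a8 probe lies at chr3:90473778-90473837 on the plus strand and the S100a1 probe at chr3:90315191-90315250 on the minus strand, in mm9, the build in the file headers. In an open reading frame, 16 of the 56605 probes held that pattern, or 0.0283%.
S100a8 probe: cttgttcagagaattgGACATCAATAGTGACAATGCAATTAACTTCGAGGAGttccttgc
S100a1 probe: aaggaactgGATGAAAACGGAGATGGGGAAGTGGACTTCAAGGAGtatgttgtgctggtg

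Levels are log2 of the background-corrected spot intensity minus the array's 75th percentile over non-control probes, so 0 is that percentile and 1 unit is a doubling. A probe was called well above background where the scanner software set that flag. All 11 member probes passed the filter for testing, which needs the flag on each array of 1 group or more. Of the 10 genes, 9 had a probe well above background on all 4 arrays, and S100b did so only on the empty vector arrays. The 75th percentile itself was a signal of 815 and 452.6 on the Hdac6 vector arrays and of 665.8 and 692.8 on the empty vector arrays. Spike-in controls, 6 in all, were compared with that percentile after centring over the arrays. They shifted by -0.56 and 0.47 log2 units on the Hdac6 vector arrays, and by 0.06 and 0.04 on the empty vector arrays. Groups below are said to overlap or not on the 75th percentile scale only. With the spike-in shifts applied, the groups of the members S100a1, S100a3, S100a8 and S100a10 would overlap. So would those of Myh9, of the dimmer S100a16 probe and of the dimmer Itgam probe, which are described below. Those of S100a14, S100a7a and Ltf would lie at the edge of overlap. The share of probes well above background ran from 59.3% to 62.7% on the Hdac6 vector arrays and from 63.6% to 64.9% on the empty vector arrays.

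Between the vectors, 4 of the 35205 tested probes (0.0114%) passed an adjusted p of 0.05 in limma, and 0 of the 11 member probes were among them. Of the 11 member probes, 8 were higher and 3 lower with the Hdac6 vector, with a median log2 difference of 0.35, while the median of all tested probes was 0.02 and 53.2% of them were higher. With S100a10 counted once, the median over the 10 genes was 0.30. Without empty vector 1 the median was 0.15 over probes and 0.16 over genes. Both Hdac6 vector arrays stood above both empty vector arrays for 5 member probes, as for 13.1% of all tested probes. Both stood below for 3 member probes, as for 11.9% of all tested probes, and the groups overlapped for the remaining 3. The 3 lower probes read S100b, S100a8 and S100a9. S100b passed the filter only through the empty vector arrays, so its place below was favoured by the filter, and with the filter set to all 4 arrays 2 lower probes remained. The arrays did not sort by vector: Hdac6 vector 1 and empty vector 2 differed by 2-fold or more in 1.22% of tested probes, against 5.34% to 7.67% for every other pair.

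**Figure D1:**
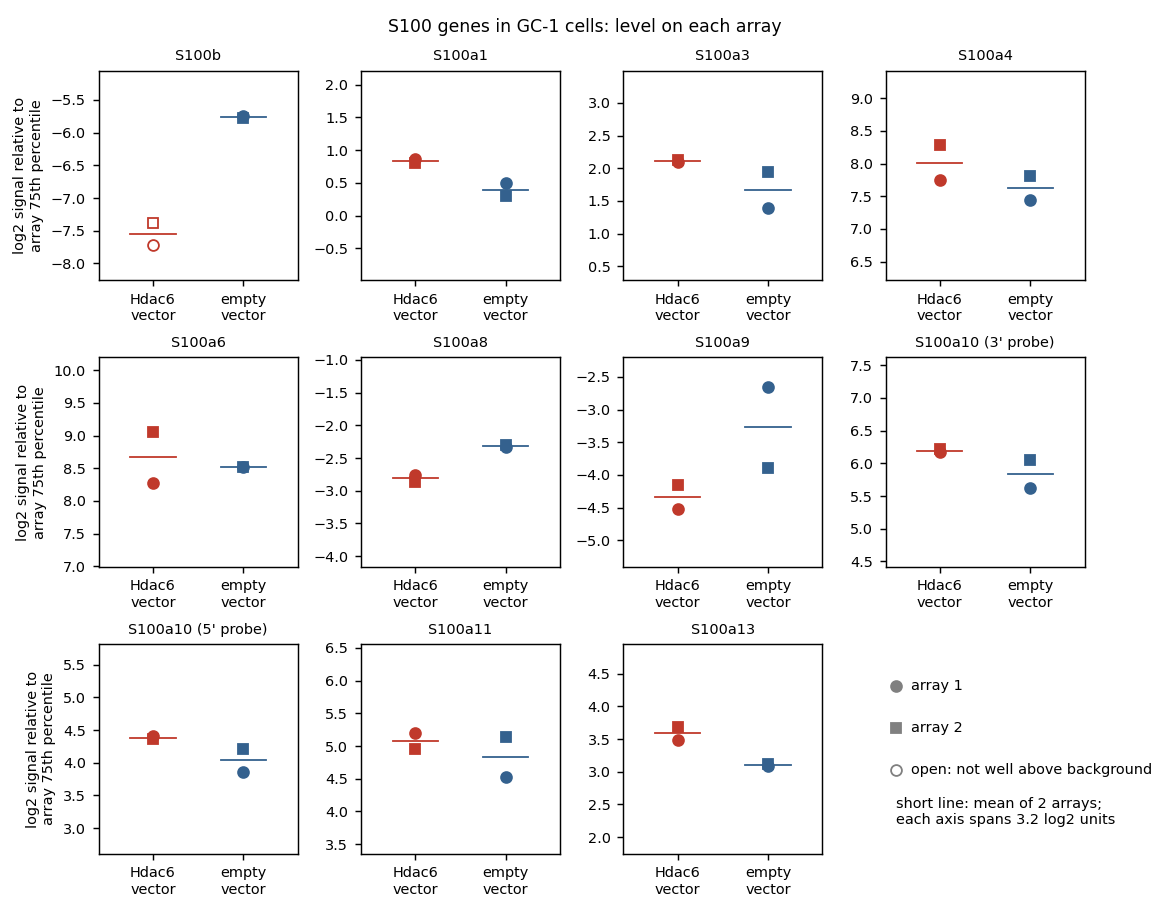
Level of each S100 probe on each array (log2 intensity with the 75th percentile of its array set to 0), Hdac6 vector left and empty vector right, with the mean of 2 arrays as a line and open symbols where the probe was not well above background. S100b stood at -7.72 and -7.38 with the Hdac6 vector, both open symbols, and at -5.74 and -5.77 with the empty vector, while the S100a6 and S100a4 groups overlap.

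S100a8 and S100a9, the calprotectin subunits, were both at low levels and both lower with the Hdac6 vector. S100a8 had levels of -2.76 and -2.86 on the Hdac6 vector arrays, against -2.33 and -2.30 on the empty vector arrays. Both Hdac6 vector arrays lay below both empty vector arrays, by at least 0.43. The log2 difference was -0.50 ± 0.30 (SE from limma, n = 2 arrays a group), or 0.707-fold, and it was -0.32 with another background correction (normexp). S100a9 had levels of -4.52 and -4.15 on the Hdac6 vector arrays, against -2.65 and -3.90 on the empty vector arrays. The groups did not overlap, but empty vector 1 stood well above the other 3 arrays. The log2 difference of -1.06 ± 0.44, or 0.479-fold, was -0.44 without empty vector 1 and -1.68 without empty vector 2. It was -0.40 with normexp.

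Markers of neutrophil and myeloid cells were measured beside these genes, since calprotectin is abundant there. Of the 12 markers, 11 had a probe well above background on all 4 arrays, and Ngp, a neutrophil granule protein, had none. Here and for the marker lists below, a gene counted if any of its probes had that flag. Among all probes the share with the flag ran from 59.3% on Hdac6 vector 2 to 64.9% on empty vector 1. The share of all genes counted in this way is not given. Several Ptprc probes and a Lyz2 probe lacked the flag on every array, so the count does not measure how strongly these markers were expressed. The summed level of the markers, on a linear scale relative to the 75th percentile, was 74.5 and 63.1 with the Hdac6 vector and from 75 to 85.3 with the empty vector. Most of the sum was Csf3r, a granulocyte receptor, at 56.9 and 47.8 with the Hdac6 vector and 54.9 and 55.3 with the empty vector. The macrophage marker Cd68 stood at 9.99 and 7.41 with the Hdac6 vector and at 22.8 and 11.6 with the empty vector, highest on empty vector 1, as was S100a9. The other markers were mixed. The log2 level of Elane was also highest on empty vector 1, at 0.34. Ltf was lower on both Hdac6 vector arrays, at -3.68 and -4.26 against -3.04 and -3.05. Ly6g was lowest on empty vector 1, at -3.52, and Camp was highest on Hdac6 vector 1, at -3.90. The brighter Itgam probe was highest on Hdac6 vector 1, at 1.03. The other Itgam probe was lower on both Hdac6 vector arrays, at -3.41 and -3.37 against -3.33 and -3.13. The part of these markers in the S100a8 and S100a9 values was not tested.

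The promoters of the calprotectin pair are shown because both probes were lower with the Hdac6 vector. A part of the promoters in that difference was not tested. The windows are the 250 bases before the RefSeq start site in GRCm38.p6, chr3:90668821-90669070 on the plus strand for S100a8 and chr3:90695722-90695971 on the minus strand for S100a9, and capitals mark motif matches.
S100a8 promoter: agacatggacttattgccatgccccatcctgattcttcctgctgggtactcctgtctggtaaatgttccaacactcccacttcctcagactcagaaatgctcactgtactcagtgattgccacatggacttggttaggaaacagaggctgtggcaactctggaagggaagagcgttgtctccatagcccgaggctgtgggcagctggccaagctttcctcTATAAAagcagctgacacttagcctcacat
S100a9 promoter: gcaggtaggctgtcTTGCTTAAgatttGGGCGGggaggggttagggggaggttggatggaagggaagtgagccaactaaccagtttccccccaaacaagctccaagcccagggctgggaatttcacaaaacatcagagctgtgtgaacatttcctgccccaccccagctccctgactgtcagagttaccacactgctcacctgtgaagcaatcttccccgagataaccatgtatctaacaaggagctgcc

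In these windows 4 motifs were searched on both strands, and their shares are over 32851 RefSeq windows of the same length. The TATA box was written as TATAAA and occurred in 12.4% of windows. A short form of the C/EBP motif was written as TTGCNNAA and occurred in 9.56%. The AP-1 motif was written as TGANTCA and occurred in 6.75%, and the GC box was written as GGGCGG and occurred in 32.7%. The matches found here do not overlap one another. S100a8 held the TATA box, which began 30 bases before its start site, and none of the other 3 motifs. S100a9 held the C/EBP motif and the GC box, and neither of the other motifs.

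S100b, the glial member, rested on the dimmest signals of the 10 genes. Its spot intensity was 3.85 and 2.72 on the Hdac6 vector arrays, against 12.4 and 12.7 on the empty vector arrays. The dimmest probe well above background had 14.4 and 11.3 on the Hdac6 vector arrays, and 9.11 on empty vector 1. S100b was thus not well above background with the Hdac6 vector, and close to that limit with the empty vector. No bound on the fold can be given, since the empty vector mean level of -5.76 lies below the limit of -5.58 that the Hdac6 vector arrays allow. The fitted log2 difference was -1.79 ± 0.37, and -0.04 with the normexp correction. It rests on Hdac6 vector signals that were not well above background, so it does not measure a fold. The probe lies at chr10:75723783-75723842 in mm9. Of 7 glial markers, 6 had a probe well above background on all 4 arrays, with a summed level of 10.1 and 10.8 with the Hdac6 vector and of 10.1 and 12.1 with the empty vector. Most of that sum was the brightest Mbp probe, with log2 levels of 3.27 and 3.35 with the Hdac6 vector, against 3.28 and 3.54 with the empty vector. The probes of the other glial markers stood at -2.49 or lower on every array, so the sum says little about them.

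Among all tested probes of other named genes, those with the pattern nearest to S100b over the 4 arrays were C4bp-ps1, Arhgef6, Pramel19, Ptbp2 and Ptprm. Likeness was the distance between levels after each probe's mean was subtracted, and it ran from 0.35 for C4bp-ps1 to 0.44 for Ptprm. Like S100b, all 5 lacked the flag for signal well above background on both arrays of the Hdac6 vector. They passed the filter only through the empty vector arrays, which favours this pattern. The likeness rests on signals not well above background, so nothing about these genes is read from it.

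S100a1, a regulator of calcium handling in muscle, and S100a13, which takes part in the release of Fgf1, are neighbours transcribed away from each other. S100a1 had levels of 0.86 and 0.81 on the Hdac6 vector arrays, against 0.49 and 0.30 on the empty vector arrays. The groups did not overlap, with a gap of 0.32 and a log2 difference of 0.44 ± 0.24, or 1.36-fold. S100a13 had levels of 3.49 and 3.69 on the Hdac6 vector arrays, against 3.09 and 3.12 on the empty vector arrays. These groups did not overlap either, with a gap of 0.37 and a log2 difference of 0.49 ± 0.23, or 1.40-fold. Where groups do not overlap, leaving out 1 array cannot turn the sign. Over all settings tried the differences ran from 0.35 to 0.54 for S100a1 and from 0.37 to 0.59 for S100a13. Fgf1 had levels of -4.80 and -4.33 with the Hdac6 vector, against -4.45 and -4.48 with the empty vector.

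The stretch between the start sites of this pair is shown because both probes were higher with the Hdac6 vector, and its part in that difference was not tested. It spans 104 bases at chr3:90514331-90514434 in GRCm38.p6 and is given on the plus strand, with its 3 CpG sites in capitals.
S100a1 to S100a13: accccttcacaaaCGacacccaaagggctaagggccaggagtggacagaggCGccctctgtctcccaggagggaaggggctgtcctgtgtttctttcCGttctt

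The stretch is 58.7% GC, against a median of 54.8% over the 104 bases nearest each RefSeq start. It held none of the 4 motifs, which occurred in 5.69% (TATA box), 3.59% (C/EBP), 2.87% (AP-1) and 25.1% (GC box) of those shorter windows.

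S100a3, S100a4 and S100a6 lie close together in the same cluster. S100a3, known from the hair cuticle, had levels of 2.10 and 2.12 on the Hdac6 vector arrays, against 1.40 and 1.95 on the empty vector arrays. The groups did not overlap, but the gap was 0.14, and the log2 difference of 0.43 ± 0.26 was 0.16 without empty vector 1 and 0.71 without empty vector 2. S100a4, which binds non-muscle myosin and is known from cell migration, had levels of 7.75 and 8.28 with the Hdac6 vector, against 7.44 and 7.81 with the empty vector. Its groups overlapped, and the log2 difference was 0.39 ± 0.29. It was 0.66 without Hdac6 vector 1 and 0.12 without Hdac6 vector 2. S100a6, calcyclin, had levels of 8.28 and 9.05 with the Hdac6 vector, against 8.52 and 8.52 with the empty vector. Its groups overlapped, and the log2 difference of 0.15 ± 0.32 turned to -0.23 without Hdac6 vector 2. The unscaled S100a6 intensities spanned only 1.06-fold over the 4 arrays, and none was flagged as saturated.

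S100a10 and S100a11 bind annexins at membranes, S100a10 as the partner of Anxa2. The S100a10 probe nearer the 3′ end had levels of 6.17 and 6.22 with the Hdac6 vector, against 5.63 and 6.05 with the empty vector. The other S100a10 probe had levels of 4.41 and 4.36 with the Hdac6 vector, against 3.86 and 4.21 with the empty vector. Both probes had a log2 difference of 0.35, or 1.28-fold, with no overlap, and for both empty vector 1 was the lowest array. Without it the differences were 0.15 and 0.18. S100a11 had levels of 5.20 and 4.95 with the Hdac6 vector, against 4.53 and 5.14 with the empty vector. Its groups overlapped, and the log2 difference of 0.24 ± 0.27 turned to -0.07 without empty vector 1.

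**Figure D2:**
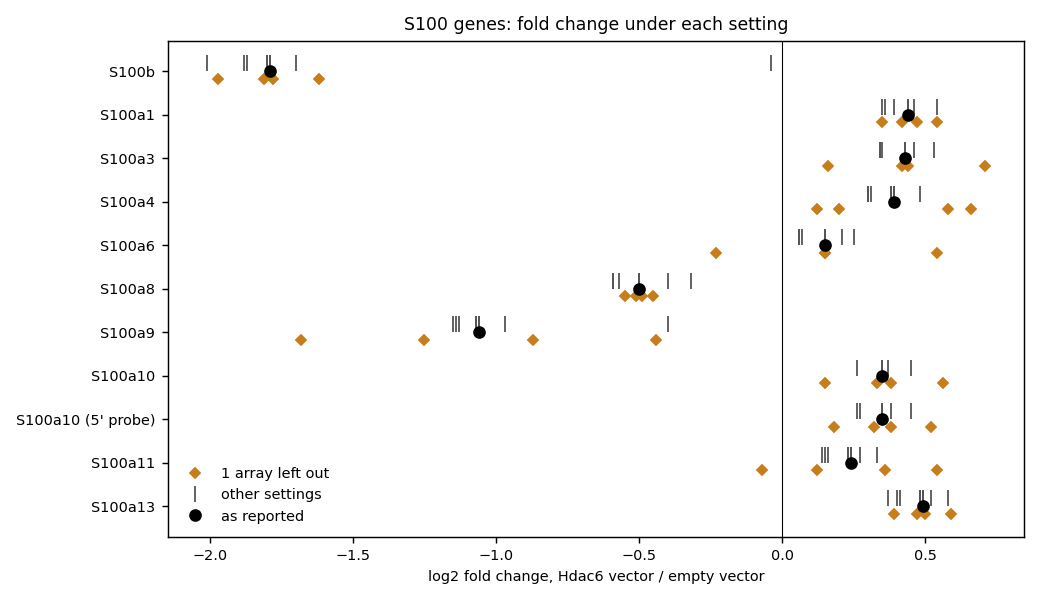
Log2 fold change (Hdac6 vector over empty vector, horizontal axis) of each S100 probe as reported (black), with 1 array left out (diamonds) and under the other settings (ticks). S100a6 and S100a11 crossed 0 with 1 array left out, and S100b ran from -2.01 to -0.04.

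In the RefSeq gene order the stretch of chromosome 3 from S100a1 to S100a9 holds 12 protein-coding genes, all of them S100 genes and all tested. From S100a1 to S100a6 the log2 differences lay between -0.04 for S100a2 and 0.49 for S100a13. The last 3 genes, S100a7a, S100a8 and S100a9, had -0.59, -0.50 and -1.06. Another 56 protein-coding genes separate S100a9 from S100a11 and S100a10. No test of position along the cluster was made.

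**Figure D3:**
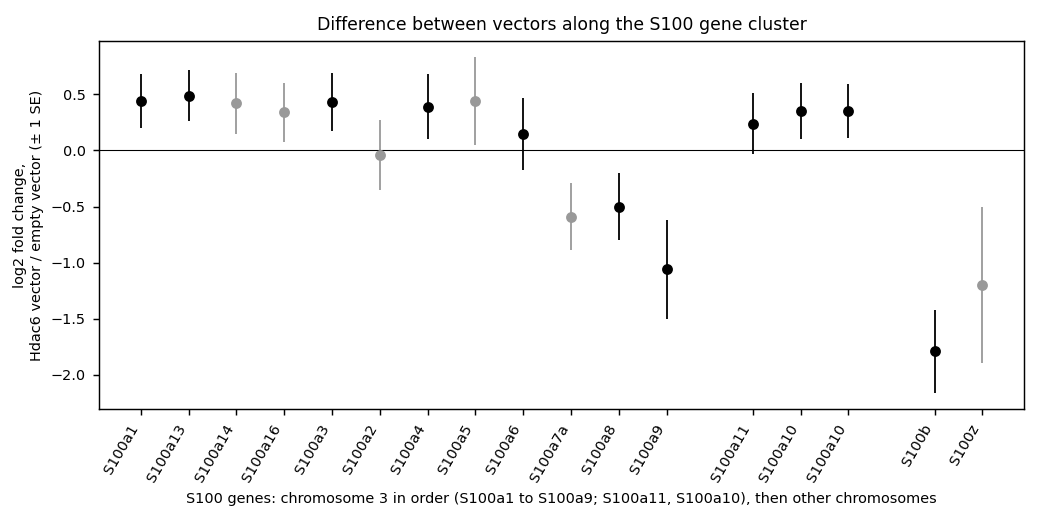
Log2 fold change (Hdac6 vector over empty vector) with its standard error for S100 genes in their order on chromosome 3, then on other chromosomes, with the 10 members in black and other S100 genes in grey. The 3 genes at the S100a9 end lie below 0, at -0.59, -0.50 and -1.06, and the S100b point was fitted to Hdac6 vector signals not well above background.

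Of 10 other S100 family genes 8 were on the array and 6 were tested, 3 higher and 3 lower, with none called and a median log2 difference of 0.15 (0.00 for the 23469 tested genes). S100a14, an epithelial member, had levels of -1.25 and -1.15 with the Hdac6 vector, against -1.67 and -1.58 with the empty vector. S100a7a, related to the skin protein psoriasin, had -1.88 and -1.53 with the Hdac6 vector, against -0.94 and -1.28 with the empty vector. Neither pair of groups overlapped, and the log2 differences were 0.42 ± 0.27 and -0.59 ± 0.30. Of the 2 S100a16 probes, the brighter had a difference of 0.34 with overlapping groups. The other had levels of 3.23 and 3.43 with the Hdac6 vector, against 3.01 and 3.10 with the empty vector, a difference of 0.28 without overlap. S100a5 had a difference of 0.44 and S100a2 of -0.04, both with overlapping groups. S100z had a difference of -1.20 that rested on Hdac6 vector 2, at -7.52 and not well above background, against -4.91 on Hdac6 vector 1 and -5.06 and -4.97 with the empty vector. S100g and S100a7l2 were not well above background on any array.

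Of 37 partners and receptors of S100 proteins 33 were tested, 13 higher and 20 lower, with none called and a median of -0.03. Anxa2 had levels of 7.97 and 8.48 with the Hdac6 vector, against 8.33 and 8.33 with the empty vector. Anxa1 had 7.54 and 7.99 with the Hdac6 vector, against 7.54 and 7.63 with the empty vector. Both groups of each annexin overlapped. The S100a6 partner Cacybp (log2 difference 0.03), the S100a10 partner Ahnak (0.02), and the receptors Ager (0.13) and Tlr4 (-0.15) also overlapped between groups. Myh9, the myosin heavy chain that S100a4 binds, had levels of 7.27 and 7.19 with the Hdac6 vector, against 7.58 and 7.39 with the empty vector, without overlap and with a log2 difference of -0.26 ± 0.25. Of 32 EF-hand genes outside the family 27 were tested, 16 higher and 11 lower, with none called and a median of 0.01.

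**Figure D4:**
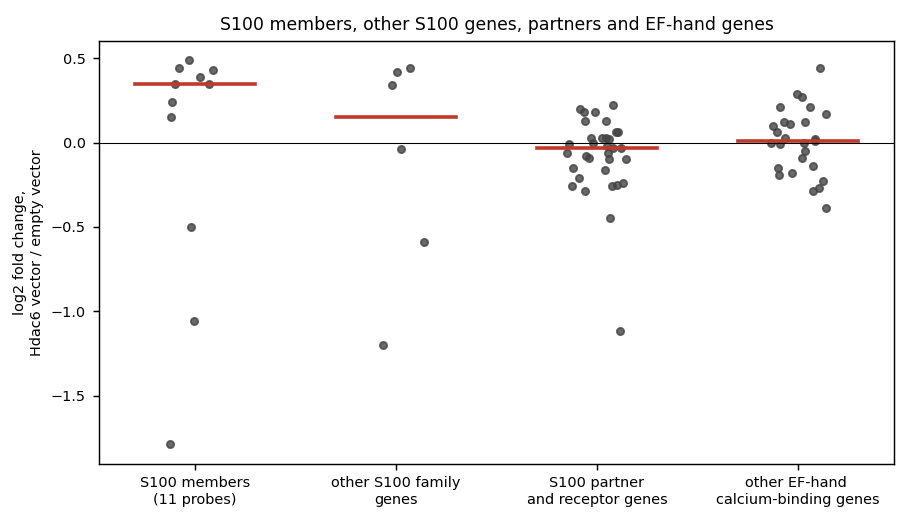
Log2 fold change (Hdac6 vector over empty vector) of each tested S100 member probe and of each tested gene in 3 lists, with the median as a red line. The medians were 0.35 for the members, 0.15 for other S100 genes, -0.03 for partners and receptors and 0.01 for other EF-hand genes.

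Of 7 genes that fuse an S100 domain to a long repeat, 2 were tested, both lower and neither called. Tchhl1 had levels of -1.98 and -1.79 with the Hdac6 vector, against 0.12 and -1.60 with the empty vector, a log2 difference of -1.15 ± 0.49, with empty vector 1 far above the other 3 arrays. Tchh, trichohyalin, differed by -0.28. Since several S100 genes are known from skin, keratinocyte markers were measured, and 7 of 7 had a probe well above background on all 4 arrays. Their summed level was 248 and 440 with the Hdac6 vector, against 279 and 309 with the empty vector. Most of it was Krt14, a basal keratin, at 217 and 407 with the Hdac6 vector and 249 and 280 with the empty vector, while its unscaled intensity spanned 1.17-fold over the 4 arrays.

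Of 10 spermatogonial markers 4 (Id4, Sall4, Uchl1 and Zbtb16) had a probe well above background on all 4 arrays, while Dazl and Kit had none on any. Hdac6 had levels of 2.62 and 3.24 with the Hdac6 vector, against 3.31 and 2.83 with the empty vector, so the groups overlapped. Its probe holds AATAAA from base 34, the signal at the 3′ end of a gene's own transcript, and need not read the transcript of the plasmid, so it does not check the labels.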

How the data were processed

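Per the file headers, spot intensities were extracted by the authors with Agilent Feature Extraction 11.5.1.1 (protocol GE1_1105_Oct12) and deposited as background-corrected processed signals, beside mean and background signals. The authors also deposited a log2 value table of 37060 gene names. Over 25183 names with 1 probe, at least 99.79% of its values lay within 0.01 of a constant offset from log2 of the processed signal, so its scale is log2 and each array's offset is the authors' own. Its column medians were -3.71 and -3.68 (Hdac6 vector) and -3.78 and -3.67 (empty vector).

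Control spots and outlier-flagged spots were dropped, spots of a probe were averaged, and each array's 75th percentile over non-control probes was subtracted. Probes well above background on both arrays of a group were tested with limma 3.58.1 (R 4.3.3; lmFit, eBayes with trend, 2 residual df), two-sided, with Benjamini-Hochberg adjustment over 35205 probes. RefSeq names were matched for 43738 of 56605 probes, and the others kept the file's name. Where a gene of a list has several probes, the one with the highest mean level was taken.

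The members and lists were chosen with earlier results of these data known. Every probe of the members and every other S100 gene with a tested probe is named, with 8 fixed partners, any list gene that passed, each list's extremes where given, and the 5 probes nearest to the member of largest range. In data simulated for this comparison (35205 probes, 50 changed at each fold), 4 were recovered at 2-fold, 41 at 4-fold and 50 at 8-fold. In the same run 7 unchanged probes were called. The small number of arrays limits the precision. Alternatives were normexp (offset 50), quantile, median and spike-in scaling, other filters, no trend, replicate blocks, the deposited log2 table and each array left out. Same-numbered arrays deviated with a correlation of -0.36, so their numbers were not taken to pair them. The 75th percentile was computed over spots and over probes, and both sets of results were seen; the probe version is reported because the definition of the level names probes.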

Additional observations from a re-analysis of the deposited data

How the results depend on the processing

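The count over all probes, 4 as reported, was 29 with normexp, 2 with quantile normalization, 0 with median scaling (727 at an unadjusted p under 0.05), 2 without the trend, 22 with the replicate block, 19 in the authors' deposited table and from 0 to 334 with 1 array left out (334 without empty vector 2, 175 without Hdac6 vector 1, 30 without empty vector 1, 0 without Hdac6 vector 2, where 761 passed unadjusted). The members' median of 0.35 (11 probes; 0.30 over 10 genes) was 0.21 over the 10 gene rows of the authors' deposited table, from 0.15 to 0.50 with 1 array left out, and 0.35 with the replicate block. The S100-related lists had from 0 to 1 gene called with 1 array left out, the 1 being Tchhl1 without empty vector 2.

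Chosen after seeing the data were spike-in scaling (3 probes), the crossed replicate block (15) and the 75th percentile over spots in place of probes. The last left the count at 4 and the members' median at 0.35, but gave 5 with the replicate block and 36 with the crossed replicate block, so the counts under either block depend on that definition; the cause was not tested.

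Other filters, the trend and the blocks leave a fold as it is, so stability was counted over the 6 settings that rescale or correct the signals, with 1 value per gene. Of those 60 values 9 moved by more than the spread between that gene's own replicates, 5 of them S100a8. The S100a8 replicates differed by only 0.10 (Hdac6 vector) and 0.03 (empty vector), so small moves counted there. The largest moves were with normexp, S100b from -1.79 to -0.04 and S100a9 from -1.06 to -0.40. With 1 array left out the sign turned in 2, S100a11 without empty vector 1 and S100a6 without Hdac6 vector 2. S100b is limited by signal over background, and with 2 arrays a group most differences under 2-fold would not be called.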
